A study of Homo sapiens with 6 samples.

Results

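Expression of the cyclin dependent kinases (CDKs) that act on transcription, and of their cyclins, was examined in OVCAR3 cells after short exposure to THZ531, an inhibitor of CDK12 and CDK13. The genes were fixed by name and comprise CDK12 and CDK13 with their cyclin K (CCNK), CDK9 with cyclins T1 and T2 (CCNT1, CCNT2), CDK7 with cyclin H (CCNH), and the Mediator kinases CDK8 and CDK19. All 10 were found, each as a single entry among the 47577 loci of the deposited table, 26793 of which carry a gene symbol. OVCAR3 is an established line derived from human ovarian carcinoma and used as a model of the high-grade serous type (HGSOC). The comparison was between 3 cultures exposed to the solvent DMSO and 3 cultures exposed to 200 nM THZ531, in both cases for 6 h, and it asked how gene expression responds to loss of CDK12 and CDK13 activity. The sample titles name THZ531, a covalent dual inhibitor of CDK12 and CDK13, whereas the treatment protocol in the labels names the related compound THZ1, which is best known as a CDK7 inhibitor. The samples were grouped by their titles.

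Transcriptional CDKs work as complexes with a cyclin and control RNA polymerase II (RNAPII) at successive steps. CDK7 with cyclin H belongs to the general factor TFIIH and phosphorylates the carboxyl-terminal domain (CTD) of RNAPII at initiation. CDK9 with cyclin T1 or T2 forms P-TEFb, which releases the paused polymerase into elongation, and CDK12 and CDK13 with cyclin K keep the CTD phosphorylated along the gene body. CDK8 and CDK19 are alternative kinases of the Mediator complex. THZ531 blocks the activity of its target proteins, so the mRNA levels of CDK12 and CDK13 do not report whether the drug was active.

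Values are normalized reads, that is, the reads counted on a gene divided by a size factor of the library. The study reported that THZ531 altered intron retention and the use of alternative last exons. Values per gene do not tell such transcripts from full-length ones. The depth on genes was 60146046 to 70986130 reads a library in DMSO and 53054048 to 57953296 in THZ531, so that depth differed with treatment. The 10 genes of interest were covered by 86 to 8589 reads per library. "Rose" and "fell" are used below for genes with a Benjamini-Hochberg adjusted p of at most 0.05 in limma over the 17568 expressed loci (those with at least 10 normalized reads in at least 3 libraries), and "regulated" for a fold change of at least 1.5 with an unadjusted p of at most 0.05, the thresholds of the study. All 10 serous ovarian epithelial markers examined were expressed, with a summed value of 439061 to 450060 in DMSO and 558646 to 571350 in THZ531, most of it from KRT8, KRT18 and KRT7. In the same list PAX8, a lineage factor of these tumours and the list's only regulated gene, fell from 11272 ± 545 to 1241 ± 121 normalized reads (SD, n = 3; log2FC, the log2 fold change of THZ531 over DMSO, -3.18), and MUC16, the CA125 antigen, fell by 0.46 in log2. These were the 2 markers of the list that fell, whereas 6 rose (34.1% and 34.6% of all expressed loci). The median log2FC of the 10 markers was 0.18, or -0.31 with scaling to RPL34. The 5 immune markers summed to 414 to 508 and 406 to 497, with CD3E at 0 in every library, the 3 endothelial markers to 162 to 199 and 213 to 299, and the 5 stromal markers, to 1641 to 1908 and 3170 to 3514. Among the stromal markers, 2 of the 3 expressed genes were regulated upward, against 15.7% of all expressed loci, namely COL1A1 and COL3A1, of which COL3A1 was not regulated with libraries at equal totals (0.35) or scaled to RPL34 (0.10). DCN and LUM were near 0 in DMSO (means of 1.59 and 1.15) and at 0 in THZ531. VWF, an endothelial marker, was regulated upward as well (log2FC 0.73), but not at equal totals (0.49) or with RPL34 (0.24). Standard errors of log2FC are given as SE. The part of the marker genes in the results was not tested. The cultures are described as 3 biological repeats of a single line, so the spread covers repeats of this line alone.

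Of the 10 genes, 3 were regulated upward (CCNT2, CCNT1 and CCNH) and 1 downward (CDK19), against 15.7% and 23.9% of all expressed loci (39.5% in either direction). At any fold change, 7 genes rose, 2 fell and CDK13 did neither. Of all expressed loci, 34.6% rose and 34.1% fell (68.6% together). Of the 7, CDK12, CCNK and CDK8 had a small negative log2FC with scaling to RPL34, described below (limma unadjusted p = 0.20, 0.20 and 0.31). The groups did not overlap for 7 genes upward and 2 downward, all but CDK13, as for 36.0% and 35.7% of the expressed loci (71.7% together). The share of regulated genes, 4 of 10, was thus near the background, while the size of the responses varied widely among the 10 genes. The absolute change of CDK13 was larger than that of only 2.06% of the expressed loci, whereas those of CDK19 and CCNT2 exceeded 86.0% and 86.6% of them.

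**Figure D1:**
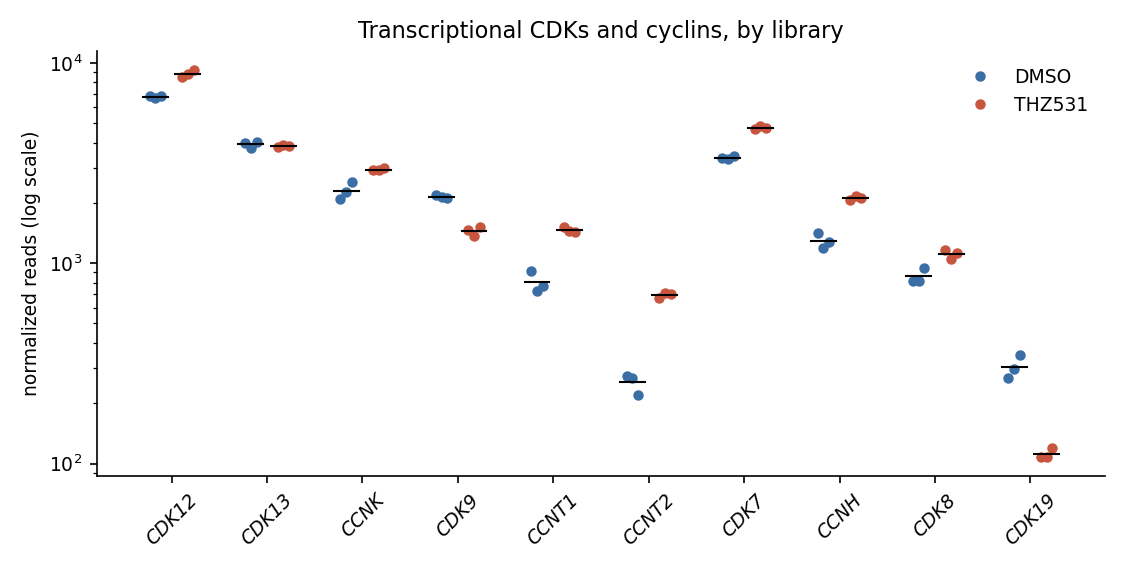
Normalized reads (log scale) of the 10 genes in each library. Points are libraries (3 DMSO in blue, 3 THZ531 in red) and bars are group means. The groups overlap for CDK13, and for the other 9 genes every THZ531 library lies on 1 side of all DMSO libraries.

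The directions depended in part on how the libraries were scaled. Normalized reads summed to 5.54e+07 to 5.66e+07 in the DMSO libraries and to 6.59e+07 to 6.68e+07 in the THZ531 libraries. In bulk samples, fewer cells and less RNA per cell cannot be told apart. When each library was scaled to the same total, the median log2FC of all expressed loci moved from -0.01 to -0.25, and when scaled to RPL34 (taken here as the L34 to which qPCR values were referred in the study) to -0.50. The latter scale rests on a single gene. It shifted log2FCs by -0.49, because RPL34 itself was higher in THZ531 than in DMSO with the deposited scaling. With the same total 2 of the 10 genes were regulated upward (CCNT1 and CCNT2) and 2 downward (CDK9 and CDK19), and with RPL34 1 upward (CCNT2) and 2 downward (CDK9 and CDK19). The background was 9.38% upward and 32.0% downward with the same total, and 6.14% and 42.8% with RPL34 (41.3% and 49.0% in either direction). With the upper quartile as scale 3 genes were regulated upward and 2 downward (background 14.9% and 24.5%, together 39.4%), with edgeR on recovered reads likewise 3 and 2 (14.7% and 24.4%, together 39.1%), and with DESeq2 3 and 1 (15.3% and 23.4%, together 38.6%).

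**Figure D2:**
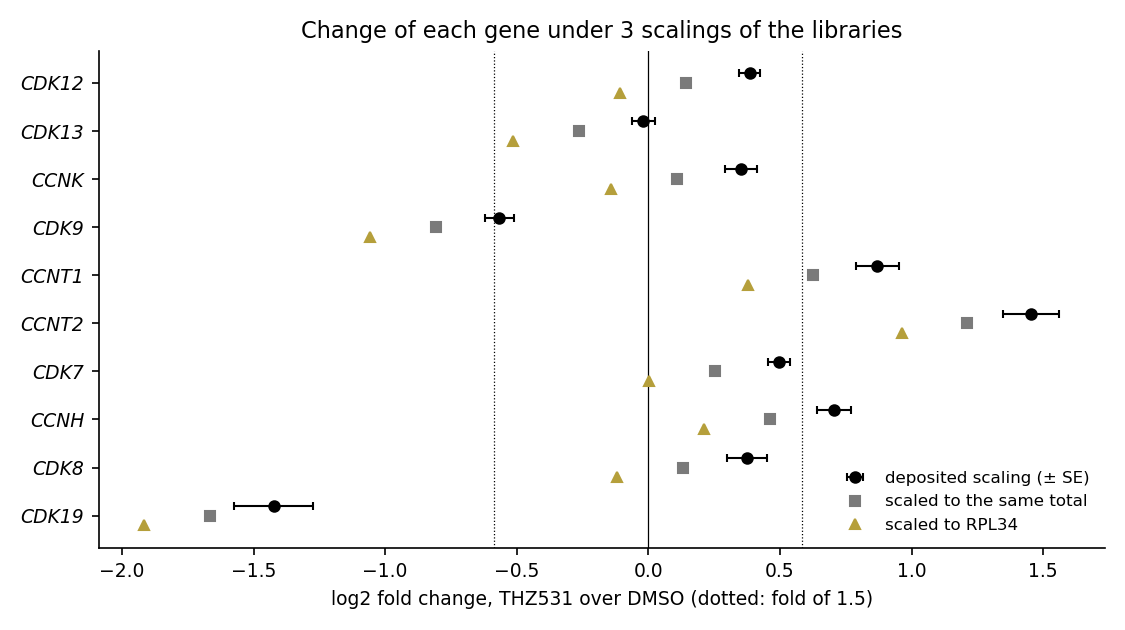
Log2 fold change of each gene, THZ531 over DMSO, with the deposited scaling (circles, error bars are the standard error of limma), with libraries brought to equal totals (squares) and with scaling to RPL34 (triangles). Dotted lines mark a fold change of 1.5. CDK12, CCNK and CDK8 cross 0 with RPL34, CDK7 lies at 0.00, and CCNT2 and CDK19 stay outside the dotted lines with all 3 scalings.

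CDK12 (GSHG0018158, chromosome 17, 39461486 to 39534544 on hg38) had 6819, 6641 and 6825 normalized reads in the DMSO libraries and 8486, 8817 and 9200.4 in the THZ531 libraries. The lowest THZ531 library was above the highest DMSO library. The mean rose from 6762 ± 105 to 8835 ± 357 (SD, n = 3), a log2FC of 0.39 (SE 0.04, limma adjusted p = 3.0e-07). This 1.31-fold increase was under the threshold of 1.5. With scaling to the same total the log2FC was 0.14. With RPL34 it was -0.11 (limma unadjusted p = 0.20), against a median of -0.50 for all loci.

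CDK13 (GSHG0039385, chromosome 7, 39950037 to 40099580), the closest paralog of CDK12, had 3989, 3747 and 4019.8 normalized reads in DMSO and 3816, 3906 and 3866 in THZ531. The THZ531 values lay within the DMSO range. The log2FC was -0.02 (SE 0.04, limma adjusted p = 0.70), or -0.26 with the same total and -0.51 with RPL34, beside medians of all loci of -0.01, -0.25 and -0.50. CCNK (GSHG0012490, chromosome 14, 99481409 to 99535044), which encodes the cyclin that both kinases need, had 2097, 2272 and 2540.5 normalized reads in DMSO and 2917, 2903 and 2974 in THZ531. All THZ531 values were above the DMSO values, which spread more widely. CCNK rose from 2303 ± 224 to 2931 ± 37.5 (SD, n = 3), a log2FC of 0.35 (SE 0.06, limma adjusted p = 8.9e-05). This became -0.14 with RPL34 (limma unadjusted p = 0.20). The CCNK locus overlaps CCDC85C on the opposite strand over 34865 bases, introns included, and CCDC85C fell (log2FC -0.42). The overlap of their exons was not examined.

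Ratios between genes within a library do not depend on the scaling, and 8 ratios of paralogs and partners were compared. The log2 ratio of CDK12 to CDK13 was 0.77, 0.83 and 0.76 in DMSO and 1.15, 1.17 and 1.25 in THZ531. It increased by 0.41, or 1.32-fold, without overlap of the groups (exact permutation test, two-sided, p = 0.10, which is the lowest value attainable with 3 libraries a group, and 0.11 adjusted over the 8 ratios). The ratio of CDK13 to CCNK was lower by 0.37 in log2 in THZ531 (exact permutation test, p = 0.10). In contrast, the ratio of CDK12 to CCNK was 1.56 ± 0.14 in DMSO and 1.59 ± 0.05 in THZ531 on the log2 scale (SD, n = 3; exact permutation test, p = 0.80), a difference of 0.03 that turned to -0.03 without DMSO replicate 3. In 7 of the 8 ratios the groups did not overlap, and CDK12/CCNK was the exception. Groups did not overlap for 71.7% of single expressed loci either, and the share among other gene pairs was not examined.

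The 150 bases upstream of the transcription start of CDK12 (chr17:39461336-39461485, plus strand, RefSeq on GRCh38.p14) are given here because CDK12 is a named target of the drug and rose with the deposited scaling. Both strands were searched for a TATA box, a CCAAT box, a GC box and an E-box, spelled out further on, and this window holds none of them, so that no base is in capitals.
CDK12: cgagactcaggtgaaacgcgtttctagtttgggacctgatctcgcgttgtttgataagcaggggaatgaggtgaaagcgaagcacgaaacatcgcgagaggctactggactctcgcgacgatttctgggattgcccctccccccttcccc

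Of the kinases compared with their cyclins, CDK9 of P-TEFb had the largest difference. CDK9 (GSHG0043823, chromosome 9, 127786034 to 127790783) had 2191, 2129.5 and 2107 normalized reads in DMSO and 1464, 1367 and 1514 in THZ531. The groups were far apart relative to their spread. CDK9 fell from 2143 ± 43.5 to 1448 ± 74.6 (SD, n = 3), a log2FC of -0.57 (SE 0.06, limma adjusted p = 2.0e-07). The fold change of 1.48 was just under the threshold, and CDK9 was regulated downward with edgeR on the recovered reads (log2FC -0.59), with the other 3 scalings (-0.59 to -1.06), and without THZ531 replicate 3 (-0.60).

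CCNT1 (GSHG0010103, chromosome 12, 48669506 to 48716898), which encodes the major cyclin partner of CDK9, had 914, 723 and 772 normalized reads in DMSO and 1514, 1444 and 1424 in THZ531. Each THZ531 value was above each DMSO value. CCNT1 rose from 803 ± 99.2 to 1461 ± 47.1 (SD, n = 3), a log2FC of 0.87 (SE 0.08, limma adjusted p = 9.2e-08), or 0.38 with RPL34, where it was no longer regulated. The CCNT1 locus of the table shares 12733 bases with the locus of KANSL2 (48653211 to 48682238), which lies on the same strand, and KANSL2 rose with the same log2FC of 0.87. In GENCODE v44 the lowest coordinate of CCNT1 is 48688458, beyond the KANSL2 locus. How reads in the shared stretch were assigned, and their part in the CCNT1 value, was not tested.

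CCNT2 (GSHG0024436, chromosome 2, 134918232 to 134959345) showed the largest increase of the 10 genes. It had 274, 268 and 220.2 normalized reads in DMSO and 674, 707 and 703 in THZ531. Every treated culture was far above every control. The mean rose from 254 ± 29.5 to 695 ± 18.1 (SD, n = 3), a log2FC of 1.45 (SE 0.11, limma adjusted p = 5.3e-09), and it was regulated with every scaling (1.21 with the same total and 0.96 with RPL34). At its 5ʹ end the locus overlaps CCNT2-AS1, a transcript of the opposite strand, over 375 bases, and CCNT2-AS1 fell from 61.7 ± 7.69 to 35.0 ± 7.90 (SD, n = 3; log2FC -0.82, limma adjusted p = 0.020).

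Within the libraries, the log2 ratio of CDK9 to CCNT1 went from 1.26, 1.56 and 1.45 in DMSO to -0.05, -0.08 and 0.09 in THZ531, a decrease of 2.704-fold. The ratio of CDK9 to CCNT2 went from 2.995, 2.985 and 3.252 to 1.12, 0.95 and 1.11, a decrease of 4.05-fold, the largest change of the 8 ratios. The ratio of CCNT1 to CCNT2 decreased by 1.499-fold. For these 3 ratios the groups did not overlap, and the exact permutation test gave its smallest p, 0.10 (0.11 adjusted).

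**Figure D3:**
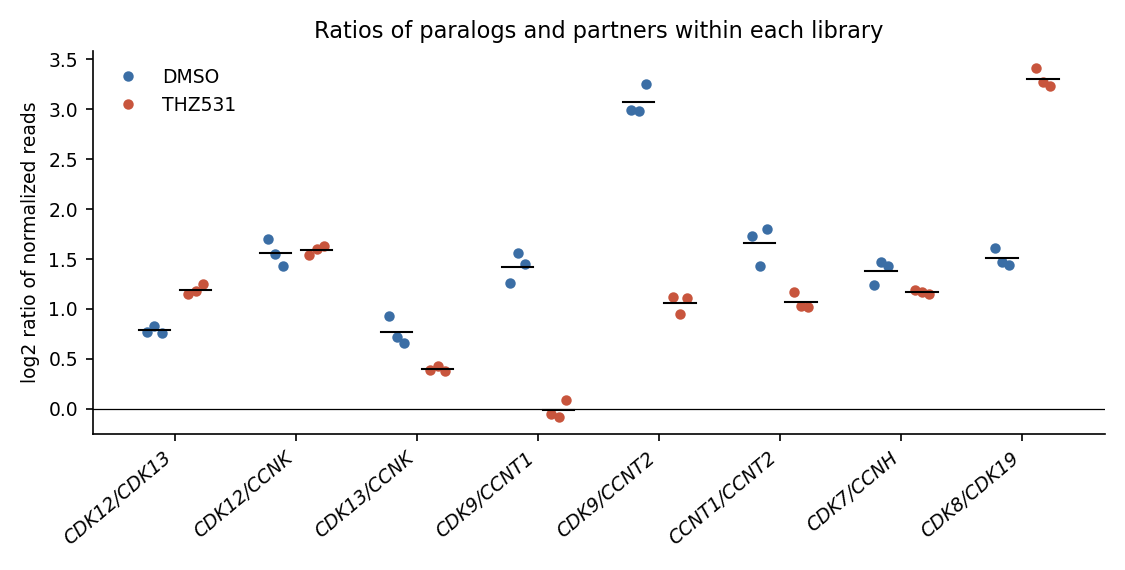
Log2 ratio of normalized reads between 2 genes of the same library for 8 pairs. Points are libraries (3 DMSO in blue, 3 THZ531 in red) and bars are group means. The groups overlap for CDK12/CCNK and not for the other 7 pairs, with the widest gaps for CDK9/CCNT2 and CDK8/CDK19.

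Among 13 other genes linked to P-TEFb and the release of paused RNAPII, 3 were regulated upward and 1 downward (15.7% and 23.9% of all expressed loci), and 8 rose and 4 fell at any fold change (34.6% and 34.1% of all). Their median log2FC was 0.34 (0.09 at equal totals and -0.16 with RPL34), against -0.01 for all expressed loci. HEXIM1, which encodes an inhibitor that holds P-TEFb inactive in a ribonucleoprotein, rose from 11327 ± 700.0 to 35007 ± 2142 normalized reads (SD, n = 3; log2FC 1.63, limma adjusted p = 2.7e-13). Its paralog HEXIM2 changed in the opposite direction, from 537 ± 33.8 to 154 ± 20.0 (log2FC -1.80, limma adjusted p = 3.5e-09). ELL2, an elongation factor, was regulated upward (log2FC 0.68), but not at equal totals (0.44) or with RPL34 (0.19). LARP7, a stabilizing protein of the inactive complex, fell with a log2FC of -0.58, a 1.499-fold decrease at the edge of the threshold. MEPCE, which caps the RNA of that complex, had 3198 ± 54.3 normalized reads in DMSO and 3216 ± 143 in THZ531 (SD, n = 3). HEXIM1 and HEXIM2 kept their direction with the same total (1.38 and -2.05) and with RPL34 (1.13 and -2.29).

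CDK7 and CCNH form the CDK-activating kinase together with MNAT1, which assembles the complex. CDK7 (GSHG0036171, chromosome 5, 69234795 to 69277430) had 3353, 3306 and 3446 normalized reads in DMSO and 4680.2, 4847 and 4725 in THZ531. Its replicates were tight and the groups well separated. CDK7 rose from 3368 ± 71.3 to 4751 ± 86.3 (SD, n = 3), a 1.41-fold increase under the threshold (log2FC 0.50, SE 0.04, limma adjusted p = 3.0e-08), which became 0.00 with RPL34.

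CCNH (GSHG0035575, chromosome 5, 87311471 to 87412930) had 1419, 1196 and 1277 normalized reads in DMSO and 2058, 2154 and 2123 in THZ531. Again, all treated libraries were above all controls. CCNH rose from 1297 ± 113 to 2112 ± 49.0 (SD, n = 3), a log2FC of 0.71 (SE 0.06, limma adjusted p = 7.4e-08). It was no longer regulated with the same total (0.46) or with RPL34 (0.21). The locus is far longer than the MANE transcript of CCNH (87394274 to 87412930) and shares 80446 bases with RASA1 on the opposite strand, which rose with a log2FC of 0.43 (-0.06 with RPL34). The log2 ratio of CDK7 to CCNH decreased by 0.21, from 1.38 ± 0.12 to 1.17 ± 0.02 (SD, n = 3; exact permutation test, p = 0.10).

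The windows of 150 bases upstream of the transcription starts of CDK7 (chr5:69234645-69234794, plus strand) and CCNH (chr5:87412931-87413080, minus strand) are shown (RefSeq, GRCh38.p14). They were chosen because this kinase and its cyclin both rose with the deposited scaling (log2FC with RPL34 0.00 and 0.21). The capitals mark an E-box in CDK7 and a GC box, read on the reverse strand, in CCNH.
CDK7: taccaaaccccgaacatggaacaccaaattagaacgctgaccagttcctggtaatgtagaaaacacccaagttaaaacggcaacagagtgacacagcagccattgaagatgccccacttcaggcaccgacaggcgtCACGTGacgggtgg
CCNH: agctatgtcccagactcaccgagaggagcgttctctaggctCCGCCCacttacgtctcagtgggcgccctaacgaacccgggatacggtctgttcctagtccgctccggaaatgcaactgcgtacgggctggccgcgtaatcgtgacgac

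Over the 10 genes the GC box was present in the windows of 6, against 36.8% of the 35116 RefSeq promoters, the E-box in that of CDK7 alone, against 4.57%, and the CCAAT box in that of CCNK alone, against 23.5%. The TATA box was in none of the 10 windows and in 6.71% of all promoters. The letters searched for as TATA box were TATAAA. The CCAAT box was searched as CCAAT. For the GC box they were GGGCGG. For the E-box they were CACGTG, which reads alike on both strands. All windows except those of CDK7 and CDK12 overlap an annotated exon, so they are not purely upstream sequence. For CCNT2 the start used lies 590 bases from the 5ʹ end of its locus. A match is only a description of the sequence, and the difference from all promoters was not tested.

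Of the other 8 genes of the CDK7 complex and TFIIH, none was regulated upward and 2 were regulated downward, near the background of 23.9%. At any fold change 2 rose and 4 fell (34.6% and 34.1% of all expressed loci), with a median log2FC of -0.19 (-0.69 with RPL34). MNAT1 rose with CDK7 and CCNH, from 1667 ± 51.6 to 2195 ± 171 normalized reads (SD, n = 3; log2FC 0.39, limma adjusted p = 3.0e-05), or -0.10 with RPL34. GTF2H1, a core subunit of TFIIH, fell from 3167 ± 104 to 1738 ± 108 (log2FC -0.87, limma adjusted p = 1.1e-09). GTF2H2, another core subunit, fell from 1891 ± 80.1 to 1053 ± 39.0 (log2FC -0.84, limma adjusted p = 3.9e-09), although this gene has near-identical copies that could share its reads. ERCC3, the DNA translocase of TFIIH, fell without being regulated (log2FC -0.41), and ERCC2, its partner helicase, had 552 ± 10.8 and 504 ± 67.6 normalized reads.

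The Mediator kinases changed in opposite directions with the deposited scaling. With RPL34 the log2FC was -1.91 for CDK19 and -0.12 for CDK8 (for CDK8, limma unadjusted p = 0.31), against a median of -0.50 for all loci. CDK8 (GSHG0010931, chromosome 13, 26254104 to 26405238) had 819, 818 and 946 normalized reads in DMSO and 1162, 1053 and 1129 in THZ531. The gap between the groups was narrow, with DMSO replicate 3 the highest control. CDK8 rose from 861 ± 73.6 to 1115 ± 56.3 (SD, n = 3), a log2FC of 0.37 (SE 0.08, limma adjusted p = 3.9e-04), with 0.13 after scaling to equal totals and -0.12 after scaling to RPL34.

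CDK19 (GSHG0038295, chromosome 6, 110609978 to 110815469) had 268, 295 and 348 normalized reads in DMSO and 108, 108 and 119 in THZ531. Every treated library was far below the lowest control. CDK19 was the only gene of the 10 that was regulated downward, from 303 ± 40.8 to 112 ± 6.53 (SD, n = 3), a log2FC of -1.42 (SE 0.15, limma adjusted p = 4.2e-07), with a range of -1.51 to -1.32 when each library was left out. It fell with every scaling (-1.67 with the same total and -1.91 with RPL34). The locus overlaps AMD1 on the opposite strand over 853 bases at its 5ʹ end, and AMD1 rose (log2FC 0.80). The log2 ratio of CDK8 to CDK19 went from 1.61, 1.47 and 1.44 to 3.41, 3.27 and 3.23, an increase of 3.48-fold (exact permutation test, p = 0.10).

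Of the 5 other genes of the Mediator kinase module, 4 rose and none fell (34.6% and 34.1% of all expressed loci), with a median log2FC of 0.32 (-0.17 with RPL34). CCNC, the cyclin of CDK8 and CDK19, rose from 3435 ± 58.7 to 4294 ± 62.2 normalized reads (SD, n = 3; log2FC 0.32, limma adjusted p = 4.3e-06), or -0.17 with RPL34. MED12L, a paralog of the kinase activator MED12, was regulated upward, from 145 ± 18.2 to 305 ± 41.8 (log2FC 1.07, limma adjusted p = 1.1e-05), but not with RPL34 (0.58). MED13L, one of the paralogous subunits that tether the module to Mediator, rose with a log2FC of 0.57 and passed the fold threshold when DMSO replicate 1 was left out (0.63). MED12 itself had 2084 ± 83.2 and 2107 ± 101 normalized reads in DMSO and THZ531.

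**Figure D4:**
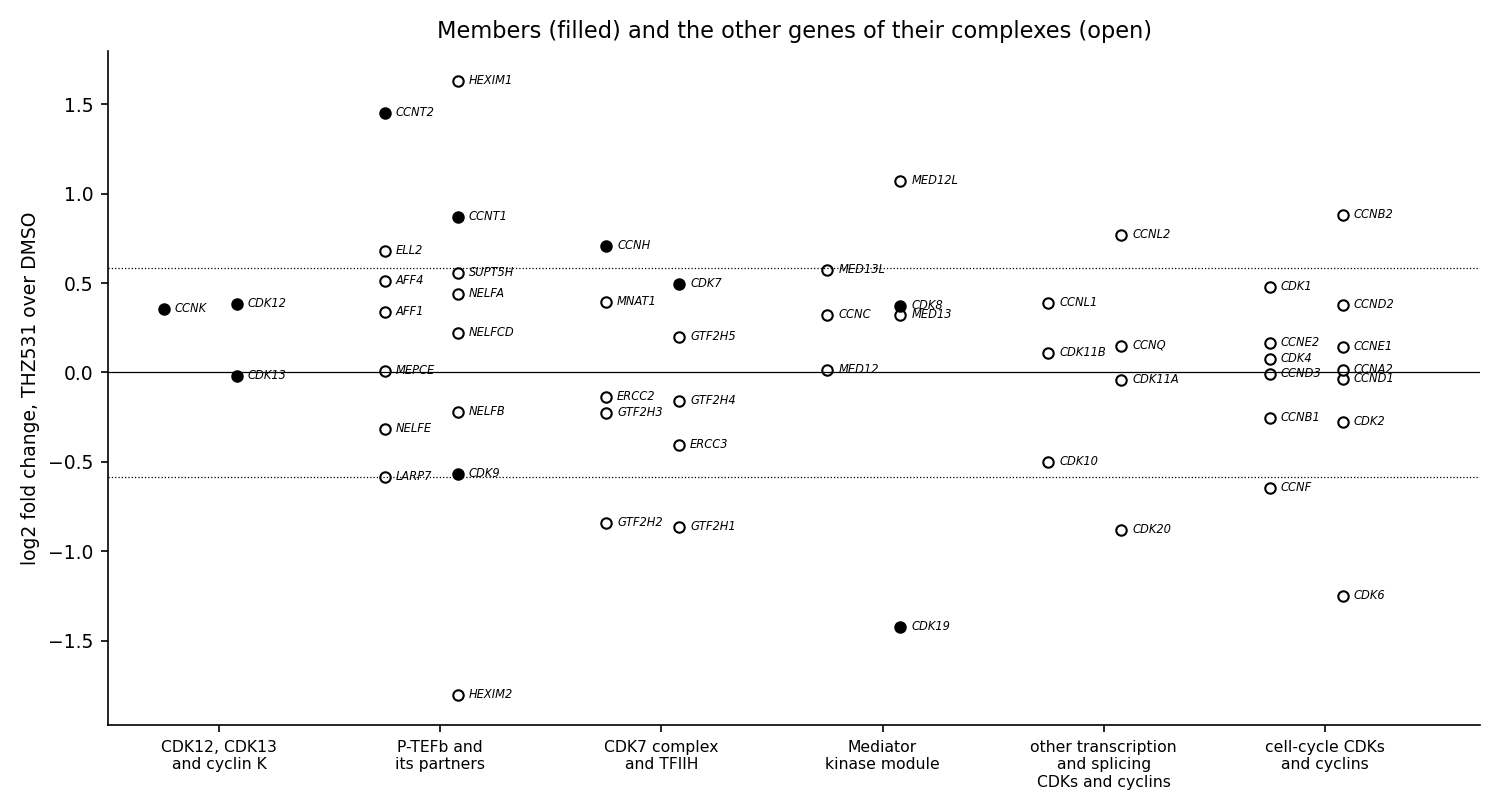
Log2 fold change (THZ531 over DMSO, deposited scaling) of the 10 genes (filled) and of other genes of their complexes and of 2 related groups (open). Dotted lines mark a fold change of 1.5. HEXIM1 and CCNT2 lie at the top and HEXIM2 and CDK19 at the bottom.

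Other CDKs and cyclins were examined for comparison. A group of 7 further CDKs and cyclins was taken, not all of them with an established role in transcription or splicing. Among them CCNL2, a cyclin of the splicing kinases CDK11A and CDK11B, was regulated upward (log2FC 0.77), but not at equal totals (0.53) or with RPL34 (0.28). CDK20 was regulated downward at a low level, from 113 ± 18.4 to 63.1 ± 23.2 normalized reads (SD, n = 3; log2FC -0.88, SE 0.27). Its log2FC ranged from -1.14 to -0.62 when each library was left out. The median of the 7 was 0.11. CDK11A and CDK11B are near-identical copies, and their separate values are uncertain. Of 13 cell-cycle CDKs and cyclins, 1 was regulated upward (CCNB2, 0.88, which was 0.39 and not regulated with RPL34) and 2 downward (CDK6, -1.25, and CCNF, -0.65), with a median of 0.01. Of all expressed loci, 15.7% were regulated upward and 23.9% downward. For the 10 transcriptional genes the median log2FC was 0.38, or 0.14 with the same total and -0.11 with RPL34. With the same total the medians of the 7 and the 13 genes were -0.14 and -0.23, and with RPL34 -0.39 and -0.48. The difference between these groups was not tested.

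Levels were compared between genes per kilobase of exon, with the union of exons in GENCODE v44 as length. In DMSO the order was CDK7 (1394 normalized reads per kilobase), CDK9 (713), CDK12 (521), CCNK (280.2), CCNH (217), CDK8 (182), CDK13 (158), CCNT1 (109), CDK19 (39.7) and CCNT2 (28.0), and the ranges of neighbours did not overlap. After THZ531, CDK12 (681) was above CDK9 (482), CCNT1 (198) above CDK13 (156), and CCNT2 (76.5) above CDK19 (14.6), whereas CCNK (357) and CCNH (353) were not separated. These levels rest on the chosen length, and reads were counted on FAST DB genes, whose bounds differ from GENCODE for CCNT1. With the MANE transcript, which for CCNH is 1280 bases in place of 5981, the level of CCNH in DMSO was 1014, next below CDK7. With this length CDK13 (411) was above CDK8 (281) in DMSO, the reverse of their order with the union. With both lengths CDK9 was above CDK12 in DMSO and below it in THZ531, and CDK19 was above CCNT2 in DMSO and below it in THZ531, whereas CCNT1 passed CDK13 only with the union of exons.

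The genes also differ in structure. The MANE transcripts of the 10 genes span between 4.76 kb (CDK9) and 205 kb (CDK19) of the genome, and the 2 genes that fell have the shortest and the longest span. CDK19 has a first intron of 68.8 kb. With the deposited scaling CDK8, with a span of 151 kb and a first intron of 82.8 kb, and CDK13, with 149 kb and 35.7 kb, did not fall. With RPL34 their log2FCs were -0.12 and -0.51. A link between gene structure and the changes was not tested. Inside the 10 loci the table lists 3 loci without a symbol, and 2 of them passed the minimum for expression. The locus on chromosome 5 from 87380799 to 87383102, inside both CCNH and RASA1 and outside the MANE transcript of CCNH, had 11.9, 20.4 and 14.4 normalized reads in DMSO and 25.2, 47.7 and 42.1 in THZ531. It was regulated upward at these low values (log2FC 1.23, SE 0.40, limma adjusted p = 0.012). That inside CDK8 (chromosome 13, 26389753 to 26393231) had 16.1 ± 2.66 and 21.8 ± 6.72 (SD, n = 3; log2FC 0.39, limma adjusted p = 0.43), and the third, inside CCNK, was listed at 0 in every library.

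Genes with a similar profile over the 6 libraries were searched among 11686 genes with a mean of at least 100 normalized reads, by the Euclidean distance of their centred log2 values. The closest to CDK12 were SNRPA, ZNF143 and CLPTM1 (distances 0.0368, 0.0551 and 0.0575), with log2FCs of 0.41, 0.38 and 0.37. The closest to CDK13 were SLC12A2, FANCI and MED1 (distances 0.0363, 0.0397 and 0.0437), with log2FCs of -0.04, -0.03 and -0.04, and the closest to CCNK were FIP1L1, UTP11 and WASHC4 (distances 0.0428, 0.0630 and 0.0630), with log2FCs of 0.33, 0.33 and 0.34. Close log2FCs follow from this way of choosing and are no further result. These matches rest on 6 libraries and are given as a description.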

How the data were processed

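PolyA plus RNA of OVCAR3 cells was sequenced in 3 DMSO and 3 THZ531 libraries made with a stranded kit. The authors aligned reads on hg38 by STAR (version 2.7.5a in the submitters' processing notes; the methods of the study name another version), counted them with featureCounts on FAST DB genes, and deposited a signal per gene, the read count divided by a DESeq2 size factor, without correction for gene length. Whether counting used strand is not given in the sources used here. Dividing by the step between values gave whole reads for 100% of entries (tolerance 0.01), so read counts could be recovered, between 53054048 and 70986130 per library. The low depth behind CDK19 (86 reads in its lowest library) and CCNT2 limits their precision most.

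Tests were run on log2(value + 1), a scale that understates the change of low genes, with limma 3.58.1 (trended variance, no covariates) in R 4.3.3 over the 17568 loci that reached 10 in 3 or more libraries, with Benjamini-Hochberg adjustment. Genes were named by a rule: the 10 genes, the regulated genes of the lists, and the 3 nearest profiles of CDK12, CDK13 and CCNK among genes with a mean of at least 100; some unregulated list genes, the cell type markers and genes that overlap a locus were named after their values were seen. The values of 1 gene of the P-TEFb list, which is part of its counts and median, are not reported here. Members and lists were chosen with earlier results of these data known. Ratios within a library were compared with the exact permutation test in scipy 1.17.1. Gene structures came from GENCODE v44 and promoters from RefSeq (GRCh38.p14), both on the build of the file. All 10 genes were matched in both; each promoter is that with the start nearest to the 5ʹ end of the locus. The scripts were tested on simulated data. The alternatives were other pseudocounts, minimums, scalings, tools and thresholds (edgeR 4.0.16 and DESeq2 1.42.0 on recovered reads), the replicate block, and leaving out each library.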

Additional observations from a re-analysis of the deposited data

How the results depend on the processing

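For the 10 genes the log2FC was recomputed under 17 alternatives (170 values). The sign turned in 3 of these, all with scaling to RPL34, for CDK8 (-0.12), CDK12 (-0.11) and CCNK (-0.14). Their limma unadjusted p was 0.31, 0.20 and 0.20, so a fall was not shown. The call changed in 8 cases, for CDK9, CCNT1 and CCNH, as given above. The replicate block changed no call: 3 genes were regulated upward and 1 downward with it as without it, and same-numbered libraries did not deviate together (correlations of 0.00168, 0.0186 and -0.0393), so they were not treated as pairs. With an adjusted in place of an unadjusted p no call of the 10 genes changed either.

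Genes regulated upward numbered 3, but 2 with the same total, 1 with RPL34 or a fold change of 2, and 7 had groups that did not overlap (a count chosen after seeing the data). Genes regulated downward numbered 1, but 2 with edgeR on recovered reads, the same total, the upper quartile or RPL34, and 2 had groups that did not overlap. With each library left out they were 3 to 3 upward and 1 to 2 downward.

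Among P-TEFb partners 3 were upward, but 1 with RPL34, the same total or a fold change of 2. Those downward were 1, but 2 with DESeq2 or edgeR on recovered reads, the same total or the upper quartile, 4 with RPL34, and 1 to 2 with a library left out (DMSO replicate 1 or 2, or THZ531 replicate 1 or 2), since LARP7 lies at the threshold. In TFIIH 2 were downward, but 3 with the same total (ERCC3 added), 6 with RPL34 and 0 with a fold change of 2. In the Mediator kinase module 1 was upward, 0 with RPL34 and 1 to 2 with a library left out (2 without DMSO replicate 1). Of the 7 further CDKs and cyclins 1 was upward, but 0 with RPL34, the same total or a fold change of 2. In the same group 1 was downward, but 2 with RPL34 or the same total and 0 with a fold change of 2. Of the cell-cycle genes 1 was upward, 0 with RPL34 or a fold change of 2, and 2 downward, 4 with RPL34 and 1 with a fold change of 2. The locus without a symbol inside CCNH was not regulated with RPL34 or tested with a minimum of 50, so that 0 such loci remained, and that inside CDK8 turned to -0.080 with RPL34.

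The ratios within a library kept their direction under each alternative except CDK12/CCNK, whose difference ranged from -0.034 (without DMSO replicate 3) to 0.104 (without DMSO replicate 1) as each library was left out. Beyond the scalings, which shift all loci alike, and the stricter thresholds, the cause of these changes was not tested.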
